A study of Rattus norvegicus with 6 samples.

Results

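The cardiac transcription factors examined here were 10 genes that regulate the heart muscle programme, namely Gata4, Gata6, Nkx2-5, Mef2a, Mef2c, Tbx5, Tbx20, Hand2, Irx4 and Hey2. They were chosen by gene name, and each matched 1 of the 32623 genes in the table. The tissue was myocardium of male wild-type rats, in 3 samples after a sham operation and 3 with ischemia, with 30 min given in the label of each sample. In ischemia the left anterior descending coronary artery, which supplies the front of the left ventricle, was tied after the chest had been opened. For sham rats no ligation is described. Rat strain and age, and which part of the heart was taken, are not given in the sources used here. Nothing states whether each sample came from 1 animal, so p-values measure only the spread between these samples.

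Cardiac transcription factors bind the promoters and enhancers of contractile, ion channel and natriuretic peptide genes, and they act in combination. Gata4 and Gata6 are zinc finger factors that bind GATA sequences, Nkx2-5 is a homeobox factor, Mef2a and Mef2c are MADS-box factors held in check by class IIa histone deacetylases, and Hand2 is a basic helix-loop-helix factor. Tbx5 and Tbx20 are T-box factors. Several of them also keep the chambers of the heart distinct: Irx4 and Hey2 are linked to the ventricle, where they hold atrial genes down, and Tbx5 is abundant in the atria. None of these genes belongs to heart muscle cells alone, since Gata4, Gata6, Mef2c and Hey2 are also used by endothelial, smooth muscle or connective tissue cells.

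Irx4 and Tbx5 were the members that differed most between libraries, and their promoters are shown for that reason. Both are from RefSeq on build GRCr8 and run from 250 bases before to 50 bases after the annotated start, in the direction of transcription. Capitals mark CG dinucleotides, the feature of the CpG-rich promoters to which Polycomb complexes bind. Irx4 lies at chr1:31868040-31868339 on the minus strand and Tbx5 at chr12:42395310-42395609 on the minus strand of that build, whereas the deposited table, whose build is not stated, lists Tbx5 on the plus strand.
Irx4: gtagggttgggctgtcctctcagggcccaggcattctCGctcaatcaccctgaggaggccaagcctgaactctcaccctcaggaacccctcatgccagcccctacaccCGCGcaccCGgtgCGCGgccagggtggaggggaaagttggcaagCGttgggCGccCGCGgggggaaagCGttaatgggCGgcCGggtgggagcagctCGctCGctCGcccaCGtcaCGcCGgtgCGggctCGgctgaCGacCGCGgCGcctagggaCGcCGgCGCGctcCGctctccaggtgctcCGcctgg
Tbx5: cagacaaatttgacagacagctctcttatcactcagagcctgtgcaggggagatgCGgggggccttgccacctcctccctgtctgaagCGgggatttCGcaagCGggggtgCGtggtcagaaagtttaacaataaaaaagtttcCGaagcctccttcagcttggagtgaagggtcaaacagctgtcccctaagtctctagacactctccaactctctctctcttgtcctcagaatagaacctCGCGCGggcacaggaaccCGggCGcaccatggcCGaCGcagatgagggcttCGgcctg

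The Irx4 window held 31 CG dinucleotides at 71.0% G and C, and the Tbx5 window held 14 at 56.0%. Promoters were found for 8 members, Gata4 and Mef2c being the others. Their CG counts ran from 12 in Gata6 to 32 in Hey2, against a median of 7 over 33469 rat promoter windows. Their G and C content ran from 49.3% in Hand2 to 73.3% in Hey2, with a median of 63.8% against 51.7% over all windows. The members' own recognition letters were searched in these windows, and each count was near the share over all windows. AGATAA or TGATAA, searched on both strands for GATA factors, occurred in 2 of the 8, Tbx5 and Hand2, and in 18.9% of all windows. AGGTGT for T-box factors occurred in 1, Gata6, and in 13.6% of all windows. CACGTG for the Hey family occurred in 0 of the 8 and in 6.42% of all windows.

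Library totals ran from 68529126 to 79591989 counts, and 3 counts corresponded to 0.0377 to 0.0438 CPM (counts scaled to the library total), a floor that covers counting error only. The libraries differed in more than the operation. The 3 genes of the Y chromosome that were looked at held 26 counts in sham replicate 1 and 1772 to 4318 in each of the rest, although the rats were labelled male. The 11 atrial marker genes, all detected in every library, summed to 275 to 48551 FPKM (fragments scaled to gene length and to the library total) in sham and to 1312 to 9682 in ischemia. Nppa alone held 2051 of the 2099 FPKM in ischemia replicate 2 and 1251 of the 1312 in ischemia replicate 3. In sham replicate 2 it held 67.7 of the 275. Mean log2 CPM over 10 atrial genes without Nppa was 7.01, 4.07 and 7.40 in sham replicates 1, 2 and 3. In ischemia it was 5.39, 2.14 and 2.63. The 5 ventricular markers summed to 1942 to 13563 FPKM in sham and to 3996 to 8092 in ischemia, with Hand1 at 0 in 4 of the 6 libraries. Heart muscle markers, 10 in the table of 12 listed and none at 0, summed to 26840 to 33763 FPKM in sham and to 8886 to 18158 in ischemia, so the labelled tissue carried its defining genes in each sample. Neutrophil and monocyte markers, 11 in the table of 12 listed and none at 0, summed to 15.7 to 33.1 FPKM in sham and to 849 to 4076 in ischemia. Epicardial and mesothelial markers summed to 47.9 to 105 FPKM in sham and to 4.89 to 31.6 after ischemia, where Bnc1 was at 0 in each library and Upk3b or Krt19 in 1 library each. In bulk tissue, fewer cells of a type and less RNA per cell cannot be told apart.

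The question for the whole group was whether 30 min of ischemia was accompanied by a change in the factors that maintain heart muscle identity. None of the 10 passed. In edgeR, which fits the raw counts with a quasi-likelihood model, 0 were higher and 0 were lower at an adjusted p under 0.05, where 5.18% of 13964 tested genes were higher and 1.53% were lower. All 10 passed the filter on low values, a mean of at least 0.5 FPKM over the 6 samples. All 10 log2 fold changes were negative, as were 50.1% over all tested genes, with a median of -0.59 against -0.0015 over all tested genes. At an unadjusted p under 0.05 there were 2 lower members, Gata4 and Tbx5, where 14.2% of tested genes were lower. Gata4 was the 1 member whose ischemia values all lay below its sham values, where 19.1% of tested genes did so. Both counts of members are near the shares over all genes.

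**Figure D1:**
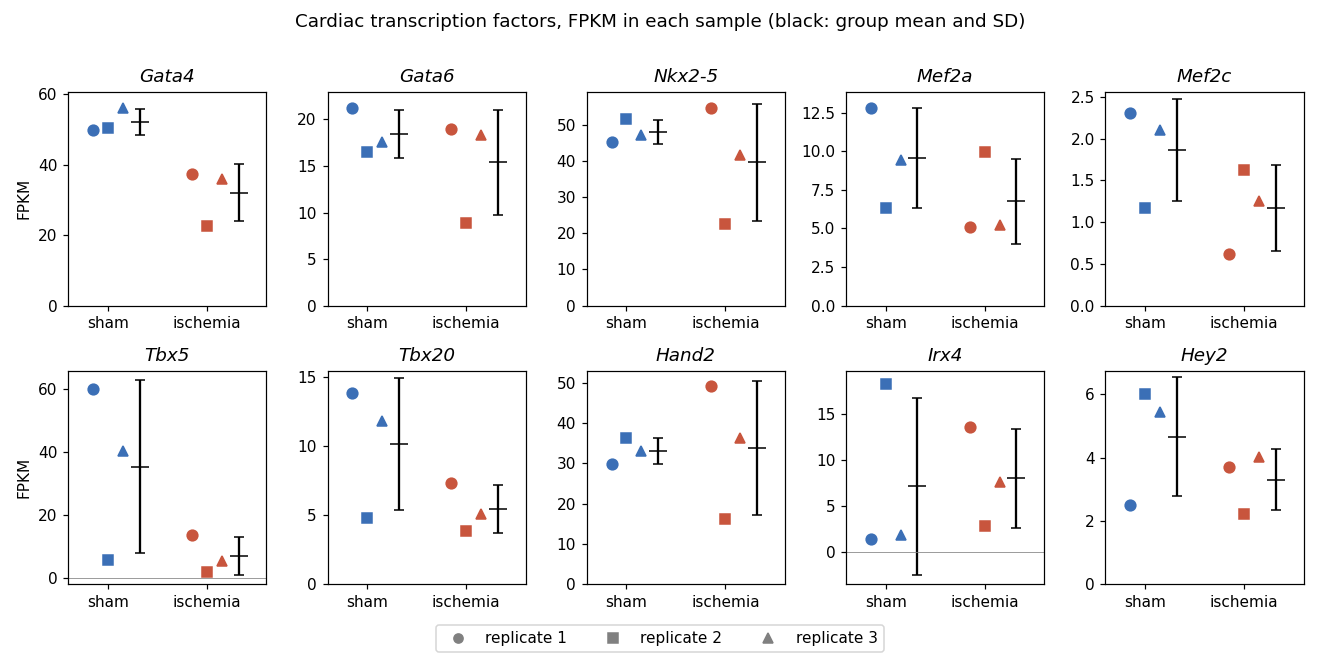
FPKM of each member in the 6 samples, with sham in blue, ischemia in red, a marker shape for each replicate number, and black bars for the group mean and SD (n = 3). Gata4 is the 1 panel without overlap between the groups (22.7 to 37.4 FPKM in ischemia against 49.9 to 56.2 in sham), and the Tbx5 and Irx4 panels show the widest sham values.

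In sham myocardium the members covered a wide range of levels. Mean FPKM, which is scaled to gene length and so can be set side by side, was 52.1 ± 3.6 (SD, n = 3) for Gata4 and 48.1 ± 3.3 for Nkx2-5, whose sample ranges overlapped. Tbx5 followed at 35.4 ± 27.5 and overlapped every member but Mef2c, then Hand2 at 33.0 ± 3.2. Gata6 at 18.4 ± 2.5 lay below all Hand2 values and above all values of Tbx20 (10.2 ± 4.8) and Mef2a (9.53 ± 3.24), which overlapped each other. Irx4 at 7.14 ± 9.57 overlapped its neighbours on both sides, and Hey2 at 4.66 ± 1.88 lay above all values of Mef2c (1.86 ± 0.61). In ischemia the means were 39.7 ± 16.2 for Nkx2-5, 33.9 ± 16.6 for Hand2 and 31.997 ± 8.09 for Gata4, which overlapped, and Mef2c was again the lowest at 1.17 ± 0.51.

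Gata4 (chr15:46386712-46432965, minus strand, as the deposited table lists it) activates contractile and natriuretic peptide genes and also drives growth of heart muscle cells. Its FPKM was 49.9, 50.3 and 56.2 in the sham libraries and 37.4, 22.7 and 35.9 after ischemia, values being given throughout in the order of the replicate numbers. The 3 sham libraries lay close together and the 3 ischemia libraries all lay below them, with replicate 2 the lowest. The log2 fold change was -0.78 ± 0.27 (SE), with a 95% interval from -1.44 to -0.12, an unadjusted p of 0.0268 and an edgeR adjusted p of 0.114. Summed markers of the heart muscle and of the epicardium, which also uses Gata4, were lower after ischemia too (levels above), and their part in the Gata4 values was not tested. Of 5 epicardial and mesothelial markers tested, 4 had all ischemia values below sham, where 19.1% of tested genes did. The epicardial marker Wt1 overlapped, at 5.15 ± 1.85 FPKM (SD, n = 3) in sham and 4.73 ± 0.48 in ischemia. The Gata4 fold change was negative in all 16 alternative fits, from -0.94 to -0.55. DESeq2 was the 1 alternative with a call (-0.81, adjusted p 0.0399), in a fit that called 12.5% of all tested genes lower.

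Gata6 (chr18:2416552-2446338, plus strand) overlaps with Gata4 in its targets and is also used by smooth muscle. Its FPKM was 21.3, 16.5 and 17.6 in sham and 19.0, 8.86 and 18.4 after ischemia. Ischemia replicates 1 and 3 lay within the sham range and replicate 2 lay below it. Its log2 fold change was -0.32 ± 0.34 (SE; 95% interval -1.15 to 0.50, edgeR adjusted p 0.533). Since library scaling cancels in a ratio of 2 genes from the same sample, the pair was also compared directly. The ratio of Gata6 to Gata4 FPKM was 0.427, 0.327 and 0.313 in sham and 0.507, 0.391 and 0.511 after ischemia. The log2 count ratio was higher in ischemia by 0.40, the groups overlapped, and the two-sided exact permutation p was 0.2, where 3 samples against 3 cannot give less than 0.1.

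Nkx2-5 (chr10:16635989-16638764, plus strand), a partner of Gata4 and Tbx5 on many heart promoters, had an FPKM of 45.4, 51.7 and 47.2 in sham and 54.8, 22.6 and 41.6 after ischemia. Hand2 (chr16:36371489-36373546, minus strand), needed for the right ventricle in development and also used by sympathetic neurons, had 29.8, 36.2 and 33.1 in sham and 49.1, 16.3 and 36.3 after ischemia. For both genes and in FPKM, ischemia replicate 1 was the highest of the ischemia libraries and above every sham library, ischemia replicate 2 was below every sham library, and so the groups overlapped. On the log2 CPM scale of the test, sham replicate 2 was the highest library for Nkx2-5. The log2 fold changes were -0.36 ± 0.37 (SE; 95% interval -1.25 to 0.53, edgeR adjusted p 0.514) for Nkx2-5 and -0.045 ± 0.44 (-1.10 to 1.014, 0.952) for Hand2. The direction of Hand2 was not settled: without ischemia replicate 2 it was 0.31, and without ischemia replicate 1 it was -0.42. These intervals leave room for a change of 1 log2 unit in Hand2 in either direction. Nkx2-5 and Hand2 had the closest profiles of any pair of members, with a root mean square distance of 0.17 between their centred log2 CPM values over the 6 samples.

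The MADS-box factors stood apart from these 4. Mef2a (chr1:128209971-128341263, minus strand) had an FPKM of 12.8, 6.35 and 9.42 in sham and 5.12, 9.94 and 5.21 after ischemia. Mef2c (chr2:11658568-11822787, plus strand) had 2.31, 1.17 and 2.11 in sham and 0.613, 1.63 and 1.25 after ischemia. Here ischemia replicate 2, the lowest of the ischemia libraries for the other 8 members, was the highest of the ischemia libraries, and the groups overlapped for both genes. The log2 fold change was -0.58 ± 0.31 (SE; 95% interval -1.32 to 0.16, edgeR adjusted p 0.233) for Mef2a and -0.74 ± 0.39 (-1.67 to 0.19, 0.226) for Mef2c, and both were negative in every alternative that tested them. Mef2a was -0.36 without sham replicate 1 and -0.90 without ischemia replicate 2, and Mef2c was -0.46 without ischemia replicate 1. The ratio of Mef2c to Mef2a FPKM was 0.180, 0.184 and 0.224 in sham and 0.120, 0.164 and 0.240 after ischemia. The groups overlapped, and the mean log2 count ratio differed by -0.21 (ischemia minus sham, exact permutation p 0.5), and without ischemia replicate 1 the difference turned to 0.027.

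Tbx20 (chr8:25850962-25904570, minus strand) keeps adult heart muscle cells contracting and conducting. Its FPKM was 13.9, 4.79 and 11.8 in sham and 7.38, 3.91 and 5.12 after ischemia. Sham replicates 1 and 3 were above every ischemia library and sham replicate 2 lay among the ischemia libraries. Ischemia differed from sham by a log2 fold change of -0.92 ± 0.40 (SE; 95% interval -1.89 to 0.05, edgeR adjusted p 0.170).

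Of the chamber-linked factors, Tbx5 and Irx4 had the widest ranges of all 10 members and Hey2 did not. Tbx5 (chr12:42097626-42148146) is the T-box factor of atrial rhythm genes and of the conduction system. Its FPKM was 60.0, 5.76 and 40.5 in sham and 13.7, 2.13 and 5.54 after ischemia, with counts from 559 in ischemia replicate 2 to 16022 in sham replicate 1. Sham replicates 1 and 3 were far above the rest, and sham replicate 2 lay within the ischemia range. It was the most abundant of the 10 members in sham replicate 1 and ranked 9 of 10 in ischemia replicate 2. The log2 fold change was -2.29 ± 0.94 (SE), the largest in size among the members, with a 95% interval from -4.56 to -0.01, an unadjusted p of 0.0492 and an edgeR adjusted p of 0.153. DESeq2 called it (-2.31, adjusted p 0.0304).

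Irx4 (chr1:32634796-32643771, minus strand) is an Iroquois factor of the ventricle. Its FPKM was 1.40, 18.2 and 1.85 in sham and 13.6, 2.88 and 7.55 after ischemia, with counts from 273 in sham replicate 1 to 3783 in sham replicate 2. Sham replicate 2 was the highest library of all and sham replicates 1 and 3 were the lowest, whereas among the sham libraries Tbx5 was lowest in replicate 2. The 3 ischemia libraries lay between them. Irx4 ranked 4 of 10 members in sham replicate 2 and 10 of 10 in sham replicates 1 and 3. The log2 fold change was -0.067 ± 1.15 (SE; 95% interval -2.84 to 2.70, edgeR adjusted p 0.973), and its direction changed with the libraries and the scale. Without sham replicate 2 it was 2.35 (edgeR adjusted p 0.132), and limma on log2(FPKM + 0.1), in which a single high library weighs less, gave 0.85.

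Hey2 (chr1:29191192-29201531, plus strand) is a repressor downstream of Notch that is linked to the compact ventricular wall and to arteries. Its FPKM was 2.52, 6.01 and 5.45 in sham and 3.71, 2.21 and 4.01 after ischemia. Sham replicates 2 and 3 were the highest and sham replicate 1 lay within the ischemia range, so sham replicate 3 was near the top for Hey2, whereas for Irx4 it was near the bottom. For Hey2 the log2 fold change was -0.60 ± 0.46 (SE; 95% interval -1.72 to 0.52, edgeR adjusted p 0.391). In sham replicate 3, where Hey2 was high and Irx4 low, the 8 smooth muscle and pericyte markers, none at 0 in any library, summed to 960 FPKM, against 235 to 294 in the other sham libraries and 119 to 311 in ischemia. Rgs5, 1 of these 8, went the other way within sham, at 103, 84.8 and 83.0 FPKM. Fibroblast and adipocyte markers also summed highest in sham replicate 3, to 2261 and 1154 FPKM. Hey2 itself was highest in sham replicate 2, where the smooth muscle and pericyte sum was 235. The part of these markers in the Hey2 values was not tested. Without sham replicate 2 the log2 fold change of Hey2 was -0.23, without ischemia replicate 2 it was -0.35, and without sham replicate 1 it was -0.93.

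**Figure D2:**
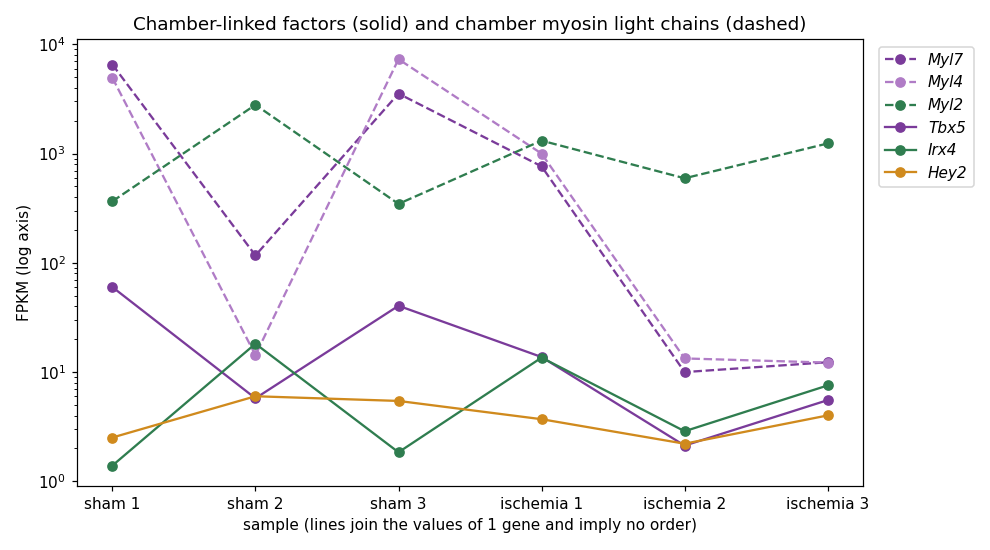
FPKM on a log axis of the chamber-linked factors (solid lines) and of the myosin light chain genes of atria (Myl7, Myl4) and ventricle (Myl2) (dashed lines) in each sample. Tbx5 is high where Myl7 and Myl4 are high (sham replicates 1 and 3), Irx4 is high where Myl2 is high (sham replicate 2 and ischemia replicate 1), and Hey2 stays between 2.21 and 6.01.

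The myosin light chain genes showed the same libraries at the extremes. Myl7, the atrial regulatory light chain gene, had an FPKM of 6530, 117 and 3541 in sham and 764, 10.004 and 12.3 after ischemia. Myl4, the atrial essential light chain gene, had 4937, 14.3 and 7312 in sham and 1000, 13.3 and 12.2 after ischemia. Sham replicates 1 and 3 carried by far the most atrial RNA, ischemia replicate 1 an intermediate amount, and the other 3 libraries little. Bmp10, a growth factor made in atrial muscle, had 3.003, 0.645 and 142 in sham and 0.484, 0.207 and 0.0766 after ischemia, and was thus high in sham replicate 3 above all. Myl2, the ventricular light chain gene, had 366, 2795 and 346 in sham and 1315, 594 and 1238 after ischemia, with sham replicate 2 the highest. All 11 atrial genes were tested, with log2 fold changes from -7.50 (Bmp10) to 0.76 (Gja5), 10 of them negative, and of the 4 ventricular genes tested 3 were negative, from -2.15 (Kcnip2) to 0.20 (Myl3). None of these passed, and 4 atrial and 0 ventricular genes had an unadjusted p under 0.05, where 32.4% of all tested genes did.

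Within each sample the ratio of Irx4 to Tbx5 FPKM was 0.0232, 3.16 and 0.0456 in sham and 0.987, 1.35 and 1.36 after ischemia. Sham held both the highest and the lowest values, and the ischemia libraries lay close together. The mean log2 count ratio was -3.19 ± 3.84 (SD, n = 3) in sham and -0.16 ± 0.27 in ischemia, a difference of 3.03 with an exact permutation p of 0.4. Set against sham replicate 2 alone, the library with the highest ratio of all 6, the difference was -1.37, a direction fixed by that choice. The ratio of Irx4 to Hey2 FPKM was 0.554, 3.02 and 0.339 in sham and 3.66, 1.30 and 1.88 after ischemia, with a log2 difference of 1.33 (exact permutation p 0.3) that turned to -0.54 against sham replicate 2 alone. Over the 4 ratios compared, each Benjamini-Hochberg adjusted exact permutation p was 0.5.

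The fits were therefore repeated with the mean log2 CPM of 10 atrial genes as a covariate, and without sham replicates 1 and 3, a choice made after the values were seen. Tbx5 moved from -2.29 to -0.010 with the covariate and to 0.033 without those 2 libraries. Neither value is separate evidence on Tbx5, since its levels had been seen to follow the atrial genes and the removed libraries held its highest values. Tbx20 moved from -0.92 to -0.045 and -0.099. These are not separate evidence either, since the removed libraries held its highest values and were the highest in atrial genes. Gata4 moved from -0.78 to -0.70 and -0.94, Gata6 from -0.32 to -0.13 and -0.37, and Nkx2-5 from -0.36 to -0.24 and -0.67. Mef2a was -0.66 and -0.24, and Mef2c was -1.08 and -0.32. Irx4 was -0.18 with the covariate and -1.46 against sham replicate 2 alone, and Hey2 was -0.78 and -1.14, where sham replicate 2 was the highest library for both genes, so the latter values follow from keeping it. Hand2 was 0.11 and -0.37. The lowest edgeR adjusted p of a member was 0.494 with the covariate (Gata4) and 0.397 without those libraries (Hey2). The fit without sham replicates 1 and 3 has a single sham sample, which is assumed to vary as the ischemia samples do.

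**Figure D3:**
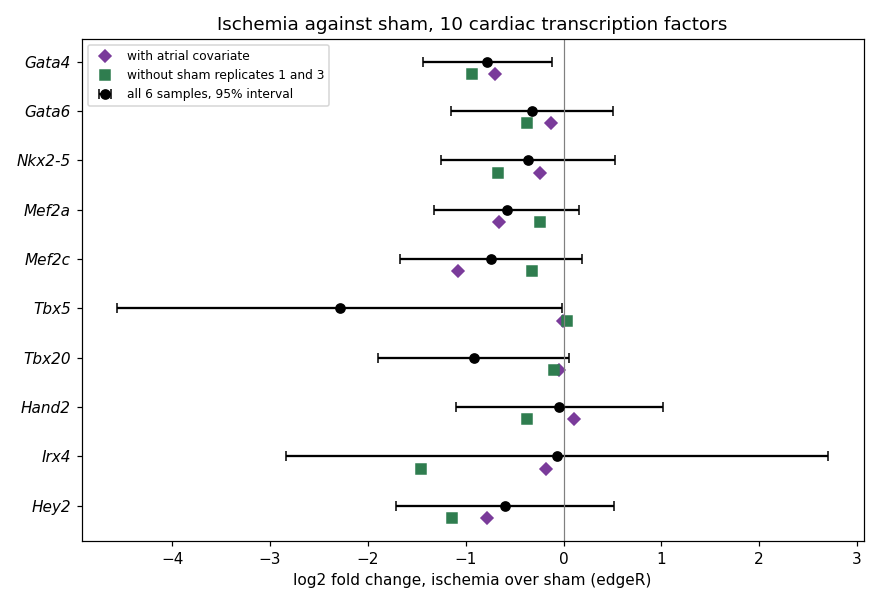
Log2 fold change of ischemia over sham from edgeR for the 10 members (black points with 95% intervals, all 6 samples), with the values under the atrial covariate (purple) and without sham replicates 1 and 3 (green). Tbx5 and Tbx20, whose highest levels were in the 2 removed libraries, move close to 0 in both repeated fits, whereas Gata4 stays between -0.94 and -0.70.

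The spread within sham separated the members as well. The SD of log2 CPM among the 3 sham libraries was 2.21 for Irx4 and 1.63 for Tbx5, above those of 98.1% and 96.7% of tested genes. It was 0.80 for Hey2 and 0.65 for Tbx20, at the 88.7 and 82.9 percentiles. Gata4 and Gata6 were the steadiest members, at 0.16 each and at the 23.6 and 22.7 percentiles. Among the ischemia libraries the SD was 1.41 for Tbx5 and 1.20 for Irx4 and lay between 0.46 and 0.90 for the other 8.

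Ischemia replicate 2 was the lowest of all 6 libraries, on the log2 CPM scale, for 7 of the 10 members, namely Gata4, Gata6, Nkx2-5, Tbx5, Tbx20, Hand2 and Hey2. It was the lowest library for 31.6% of all tested genes. The same library had the lowest summed heart muscle markers (8886 FPKM, against 16532 and 18158 in the other ischemia libraries) and the highest summed neutrophil and monocyte markers (4076 FPKM, against 849 and 1461). Their part in the members' levels was not tested. Without it the log2 fold changes of Nkx2-5 and Gata6 were -0.059 and -0.021, and that of Gata4 was -0.55. Other single libraries also moved them: Nkx2-5 was -0.19 without sham replicate 2 and -0.68 without ischemia replicate 1, and Gata6 was -0.51 without ischemia replicate 1 and -0.51 without ischemia replicate 3.

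**Figure D4:**
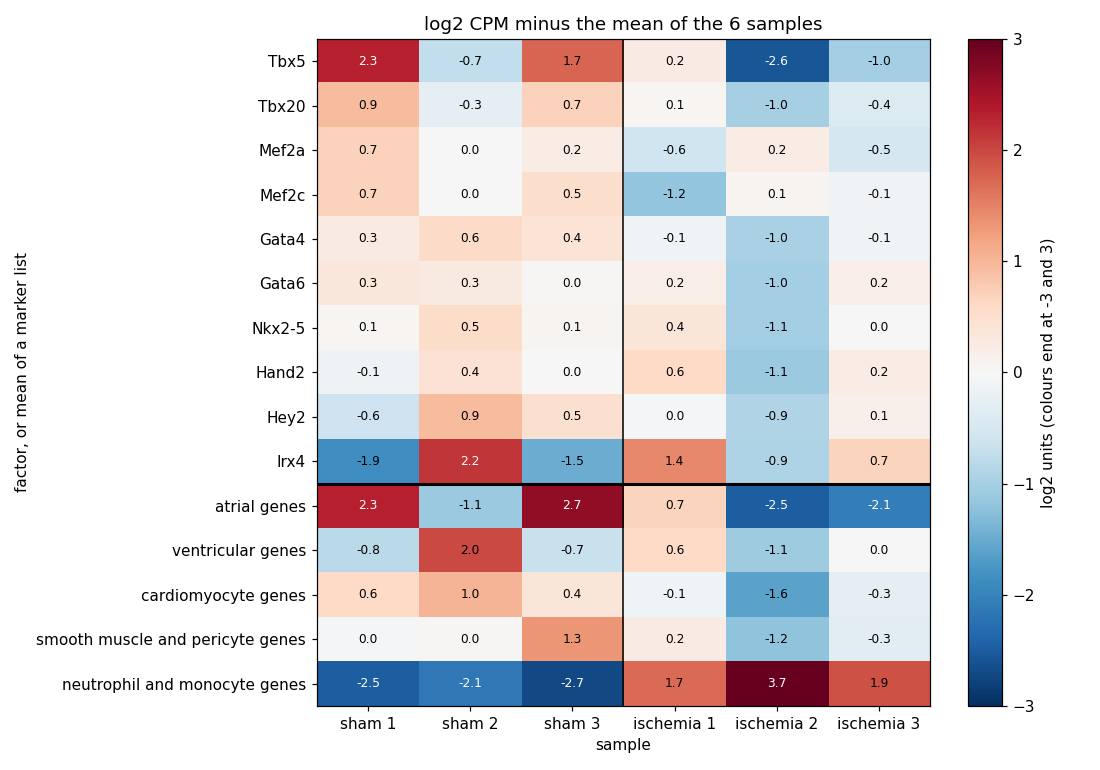
Log2 CPM of each member (above the thick line) and mean log2 CPM of 5 marker lists (below it), minus the mean of the 6 samples, in colour and as numbers. Tbx5 and Tbx20 carry their highest values in sham replicates 1 and 3 together with the atrial genes, Irx4 in sham replicate 2 together with the ventricular genes, and 7 members have their lowest value in ischemia replicate 2.

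The members were next set against heart muscle RNA, as the log2 ratio of their counts to the geometric mean of 10 heart muscle genes in the same library. Those 10 genes, among them the myosin heavy chain gene Myh6 and the actin gene Actc1, were lower in ischemia by the mean log2 CPM, with a difference of -1.33. Against that reference 9 of the 10 members were higher in ischemia and Tbx5 was lower (-0.90, exact permutation p 0.5). When single samples were left out, Tbx5 ranged from -2.01 (without sham replicate 2) to -0.26 (without sham replicate 1). The ischemia values of 3 members lay above all their sham values: Hand2 (1.14), Gata6 (0.91) and Nkx2-5 (0.87), each with an exact permutation p of 0.1, the smallest the design allows, and an adjusted p of 0.333 over the 10 members by the same permutation tests. The same held for 64.5% of all tested genes, whose median was 1.33, against a median of 0.77 for the members. Hand2 relative to heart muscle genes was -7.77, -7.60 and -7.41 in sham and -6.28, -6.53 and -6.53 after ischemia. With the median of the reference genes in place of their mean, the differences were 0.63 for Hand2, 0.40 for Gata6 and 0.36 for Nkx2-5, and Gata6 and Nkx2-5 then overlapped between the groups (exact permutation p 0.2).

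For each member the 3 tested genes with the nearest profile were sought by the root mean square distance between centred log2 CPM values over the 6 samples, a description that does not speak to shared control. Nearest to Irx4 were Rpl3l (0.33), a ribosomal protein gene of striated muscle, Irx3 (0.43), its Iroquois relative, and Myl2 (0.44). Rpl3l had an FPKM of 26.9, 290 and 28.1 in sham and 128, 46.6 and 94.5 after ischemia, the order of Irx4 in which sham replicate 2 leads and sham replicates 1 and 3 trail. Nearest to Tbx5 were Zfp579 (0.22), Pam (0.31) and Sfrp1 (0.32). Pam, an enzyme that amidates peptides and is abundant on atrial granules, had 1467, 200 and 899 FPKM in sham and 397, 87.6 and 135 after ischemia, again led by sham replicates 1 and 3. Nearest to Gata4 were Zfp362 (0.069), Cfap410 (0.073) and Dag1 (0.076), the last of which encodes dystroglycan, a link of the muscle membrane to the matrix. Nkx2-5 lay nearest to Ndufb8 (0.080), a complex I subunit, and then to Nfs1 and Bloc1s1. For Hey2 the nearest was Rita1 (0.11), which encodes a protein that binds Rbpj. The distances of the nearest genes to Gata6, Mef2a, Mef2c, Tbx20 and Hand2 were 0.11 (Sardh), 0.086 (Mtif2), 0.16 (Hacd4), 0.13 (Mturn) and 0.11 (Cd320).

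Among 30 other cardiac transcription factors, 24 were tested, 1 was higher and 0 were lower at an edgeR adjusted p under 0.05, where 5.18% and 1.53% of all tested genes were. Tead4, a TEA-domain factor that binds muscle-specific promoter elements, rose, with an FPKM of 2.09, 2.501 and 2.42 in sham and 5.13, 12.6 and 7.99 after ischemia. Every ischemia library lay above every sham library, and the log2 fold change was 1.76 ± 0.34 (SE; edgeR adjusted p 0.0418). Without any 1 of sham replicates 1, 2 and 3 or ischemia replicates 2 and 3 the count of other factors called higher was 0. Of the 24 genes, 17 had negative values, with a median of -0.50, and 7 had ischemia values that all lay below sham, where 19.1% of tested genes did. Irx3, named after its values were seen, followed the pattern of Irx4, with 0.951, 12.0 and 0.976 FPKM in sham and 9.41, 4.01 and 5.08 after ischemia.

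Of 26 cofactors, inhibitors and upstream signals, 25 were in the table and 24 were tested. In edgeR 0 were higher and 0 lower, while 8 of the 24 had an unadjusted p under 0.05, as did 32.4% of all tested genes. DESeq2 called 4 higher and 3 lower, where it called 14.8% and 12.5% of all tested genes. Their median log2 fold change was 0.026. The highest values were those of Bmp2 (1.64 ± 0.47 (SE), edgeR adjusted p 0.0801), a ligand that induces Nkx2-5 in development, and Rbpj (1.18 ± 0.41, 0.114), the DNA-binding partner of Notch. The lowest were Bmp10 (-7.50 ± 2.23, edgeR adjusted p 0.0839) and Hdac5 (-1.003 ± 0.22, 0.0504), a class IIa deacetylase that represses Mef2 factors. Hdac5 had an FPKM of 51.9, 50.4 and 46.8 in sham and 30.7, 22.4 and 26.1 after ischemia. Its groups did not overlap, and the adjusted p lay just above the threshold. In all, 5 of the 24 had ischemia values above all sham values, where 22% of tested genes did, and 5 had them below, where 19.1% did.

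Of 24 textbook target genes of these factors, all of which were tested, 0 were higher and 1 was lower in edgeR, where 5.18% and 1.53% of all tested genes were. Kcnd3, which encodes a potassium channel of the transient outward current, fell, with a log2 fold change of -2.02 ± 0.35 (SE) and an adjusted p of 0.0361 in edgeR, and with an FPKM of 3.11, 1.55 and 1.91 in sham and 0.586, 0.409 and 0.674 after ischemia. Without any 1 of sham replicates 1, 2 and 3 or ischemia replicate 3 the count of targets called lower was 0, and without ischemia replicate 1 it was 4. The share of all tested genes called lower in those fits was not counted, so these counts cannot be set against it. In all 22 of the 24 targets had negative values, where 50.1% of all tested genes did, with a median of -0.72. The ischemia values of 8 all lay below sham, where 19.1% of all tested genes did so. The target list shares members with the marker lists, since it holds contractile genes such as Myh6, Actc1 and Tnnt2.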

How the data were processed

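Total RNA of rat myocardium, in 3 sham and 3 ischemia samples, was sequenced from libraries of a stranded total RNA kit. The submitters' processing notes name STAR and HTSeq without versions. The genome build, annotation and strand setting are not given in the sources used here, so positions are as the table lists them. Per Ensembl gene, the authors deposited raw counts, all whole. The FPKM values deposited by the authors are scaled to gene length and library size, with 0.0001 written for genes without counts, read as 0 here. Reads shared with overlapping genes or near-identical copies may be counted unevenly.

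Samples were grouped by title. Genes with a mean of at least 0.5 FPKM (13964) were tested with the edgeR 4.0.16 quasi-likelihood test on counts with TMM scaling, without covariates, and p-values were adjusted over all of them by Benjamini-Hochberg (threshold 0.05). The SE was taken from the F statistic, and the 95% interval from its moderated degrees of freedom. Log2 CPM used a prior count of 2. For ratios the test was an exact permutation, two-sided. Alternatives were DESeq2 1.42.0, limma 3.58.1 on log2(FPKM + 0.1) and log2(FPKM + 1), 2 scalings, 2 filters, the replicate number as a block, an atrial covariate, each sample left out, and the removal of sham replicates 1 and 3, which was added after seeing the data. The tests were checked on simulated counts. The members and lists were chosen with earlier results of these data known. Genes named from the lists were those that passed, or otherwise the 2 highest and 2 lowest, and further genes are marked where they appear. R 4.3.3, Python 3.11.15 and matplotlib 3.10.9 were used. Promoter windows came from RefSeq, build GRCr8.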

Additional observations from a re-analysis of the deposited data

How the results depend on the processing

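The lowest count of a member was 273, for Irx4 in sham replicate 1. The number of members past the threshold was 0 in each direction under every alternative with more than 1 sample in each group, except DESeq2. That fit called 2 members lower, where it called 12.5% of all tested genes lower. The log2 fold changes of Gata4, Gata6, Nkx2-5, Mef2a, Mef2c, Tbx20 and Hey2 were negative in every alternative that tested them. Mef2c and Hey2 could not be tested at a mean FPKM of at least 5.

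Tbx5 reversed to 0.033 without sham replicates 1 and 3. Hand2 reversed to 0.041 with total-count scaling and 0.11 with the atrial covariate, and ranged from -0.42 to 0.31 when single samples were left out. Irx4 reversed to 0.85 and 0.63 with limma at pseudocounts of 0.1 and 1, to 0.17 with total-count scaling and to 1.25 with the replicate block, and ranged from -0.68 to 2.35 when single samples were left out. Same-numbered samples of the groups did not deviate together (correlations -0.0561, -0.094 and -0.196 over 13964 genes). Deviations from the mean of 3 samples are bound to each other, so these values cannot settle whether the numbers pair the samples. In the block fit Tbx5 was -2.23 (edgeR unadjusted p 0.000792, adjusted p 0.0943). Tbx20 was -0.89 there (edgeR unadjusted p 0.0155, adjusted p 0.136). With the replicate block 0 members, 0 other cardiac transcription factors and 0 targets passed, against 0, 1 and 1 without it.

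Other cardiac transcription factors past the threshold were 4 lower with DESeq2, and 0 higher with the atrial covariate and without sham replicates 1 and 3. They ranged from 0 to 1 higher and 0 to 3 lower when single samples were left out. For cofactors and regulators the counts were 4 higher and 3 lower with DESeq2, 1 and 1 with limma at 0.1, 1 lower with limma at 1 and 1 lower at a mean FPKM of at least 5, with 0 to 4 higher and 0 to 1 lower when single samples were left out. For targets they were 1 higher and 8 lower with DESeq2, 3 lower and 2 lower with limma at 0.1 and 1, 2 lower with total-count scaling, 2 lower at a mean FPKM of at least 5, and 0 lower with the atrial covariate and without sham replicates 1 and 3, with 0 to 4 lower when single samples were left out. The larger counts came without ischemia replicate 1. DESeq2 called 14.8% of all tested genes higher and 12.5% lower. For the other alternatives no share over all tested genes was counted, so their counts cannot be set against one. The cause of these moves in the counts was not tested.

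When single samples were left out, the ratio of Mef2c to Mef2a ranged from -0.47 to 0.027. That of Irx4 to Tbx5 ranged from 1.69 (without sham replicate 1) to 5.23 (without sham replicate 2). That of Irx4 to Hey2 ranged from 0.68 (without sham replicate 3) to 2.26 (without sham replicate 2). The ratios of Irx4 to Tbx5 and to Hey2 reversed to -1.37 and -0.54 without sham replicates 1 and 3. Relative to heart muscle genes, 3 members did not overlap with all samples, where 64.5% of all tested genes were higher without overlap. The count was 1 with the median of the reference genes and 3 to 5 when single samples were left out. No share over all tested genes was counted for these. Against sham replicate 2 alone the count was 8 of 10, where 85.8% of all tested genes had all ischemia values above that 1 library. There Gata4 reversed to -0.0074 and Tbx20 to -0.075 with the median of the reference genes, Tbx5 to 1.31 and Irx4 to -0.061 without sham replicates 1 and 3, and when single samples were left out Mef2c ranged from -0.20 (without ischemia replicate 2) to 1.18 and Tbx20 from -0.11 (without sham replicate 2) to 0.72.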

Other observations

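Several cardiac transcription factors were too low for the test. Irx1 had FPKM values of 0, 0.192 and 0.0663 in sham and 0.306, 0.489 and 0.316 after ischemia, and Irx2 had 0, 0.163 and 0.218 in sham and 0.432, 1.09 and 0.662 after ischemia. Both were higher in each ischemia library than in each sham library, as were 22% of tested genes, at counts of at most 117 in a library. Mef2b had 0.413, 0 and 0.354 in sham and 0.199, 0.282 and 0 in ischemia, and Irx6 had no counts. Isl1, a factor of the sinus node and of cardiac progenitors, had 0.0806, 0.0234 and 0.507 in sham and 0.0341, 0 and 0 after ischemia, with 91 counts in sham replicate 3. Hand1, the left ventricular relative of Hand2 in the embryo, had at most 7 counts in a library.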
